A study of Mus musculus with 12 samples.

Results

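Chemokine ligands and receptors were read out in kidney cortex of mice that express a constitutively active HIF1α in the proximal tubule. The genes were every row of the deposited count table whose symbol belongs to the CC, CXC, CX3C and XC ligand families (Ccl, Cxcl, Cx3cl1, Xcl1), to the classical receptors (Ccr, Cxcr, Cx3cr1) or to the atypical receptors (Ackr). The names gave 57 of 37681 genes, 36 ligands and 21 receptors. The symbol Xcr1, the receptor of Xcl1, is outside these names and is given with the related genes. Another 4 symbols of these families in the annotation (Ccl19-ps3, Ccl21a, Ccl21b and Ccl27b) had no matching identifier and were not analysed here.

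The animals were 3 TRACK/gamma-HIF1alphaM3 TG+ mice (43-29, 43-49 and 43-75) and 3 littermates that were TG− for the transgene (43-26, 43-50 and 43-76). All were untreated C57BL/6 males of 18 months, chosen by the study for the more advanced disease of older mice. A thin outer slice of cortex was taken from each kidney, and the 2 kidneys of a mouse were sequenced as separate libraries, 12 in all. The counts of both kidneys were summed here, so that the mouse is the unit and each group has n = 3. TRACK mice model clear cell renal cell carcinoma through a transgene expressed in the proximal tubules, and the slice also holds other tubule segments, vessels and leukocytes.

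Chemokines are small secreted or membrane-tethered proteins that steer migrating leukocytes along concentration gradients. They act on G protein-coupled receptors of the Ccr, Cxcr and Cx3cr families, which signal through Gi proteins, phosphoinositide 3-kinase gamma and Rac. Atypical receptors of the Ackr family bind the same ligands without coupling to G proteins and remove or redistribute them. In kidney, tubule epithelium and endothelium are known sources of ligands, and most classical receptors sit on leukocytes.

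Of the 57 genes, 42 had enough reads to be tested, 27 ligands and 15 receptors, among 19399 genes tested in all. In edgeR's quasi-likelihood test, a call needed an adjusted p under 0.01 and at least a 2-fold difference in either direction. By that rule 5 ligands (Ccl28, Cxcl14, Ccl9, Ccl5 and Ccl22) and 2 receptors (Cxcr3 and Ccr7) rose in TG+ mice, and none fell. Of all genes tested, 3.77% were called higher and 0.211% lower, against 16.7% and 0 of the chemokine genes. At an unadjusted p below 0.05, 27 of the 42 differed (64.3%), 15 ligands and 12 receptors, against 39.1% of all genes tested. The 15 ligands include Ccl7 and Ccl11, which reached the filter on low counts in 3 TG+ mice and 1 TG− mouse. DESeq2 called 9 of the 42 higher and 0 lower, beside 820 (4.23%) higher and 48 lower of all 19399 genes. With it Cxcl14 lost the call, and Cxcl1, Ccr1 and Ccl11 gained it.

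The median log2 fold change was 0.73 over the 27 tested ligands and 0.83 over the 15 tested receptors, and 0.01 over all genes tested. The value lay above 0 for 23 of the ligands and 14 of the receptors, 88.1% of the 42 genes, against 51.8% of all genes tested. The lowest TG+ mouse exceeded the highest TG− mouse for 10 ligands and 9 receptors, 45.2% of the 42 genes, where 23.4% of all genes tested did so. The 10 ligands include Ccl7 and Ccl11, which were tested through the group where they are high. Both also count in the ligand median and among the 23 ligands above 0. The highest TG+ mouse was below the lowest TG− mouse for Ccl25 and Ackr4 alone, 4.76% of the 42, where 20.8% of all genes tested did so. An exact 2-sided permutation test of 3 against 3 mice cannot go below p = 0.1, which is the value for each gene with groups that do not overlap.

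**Figure D1:**
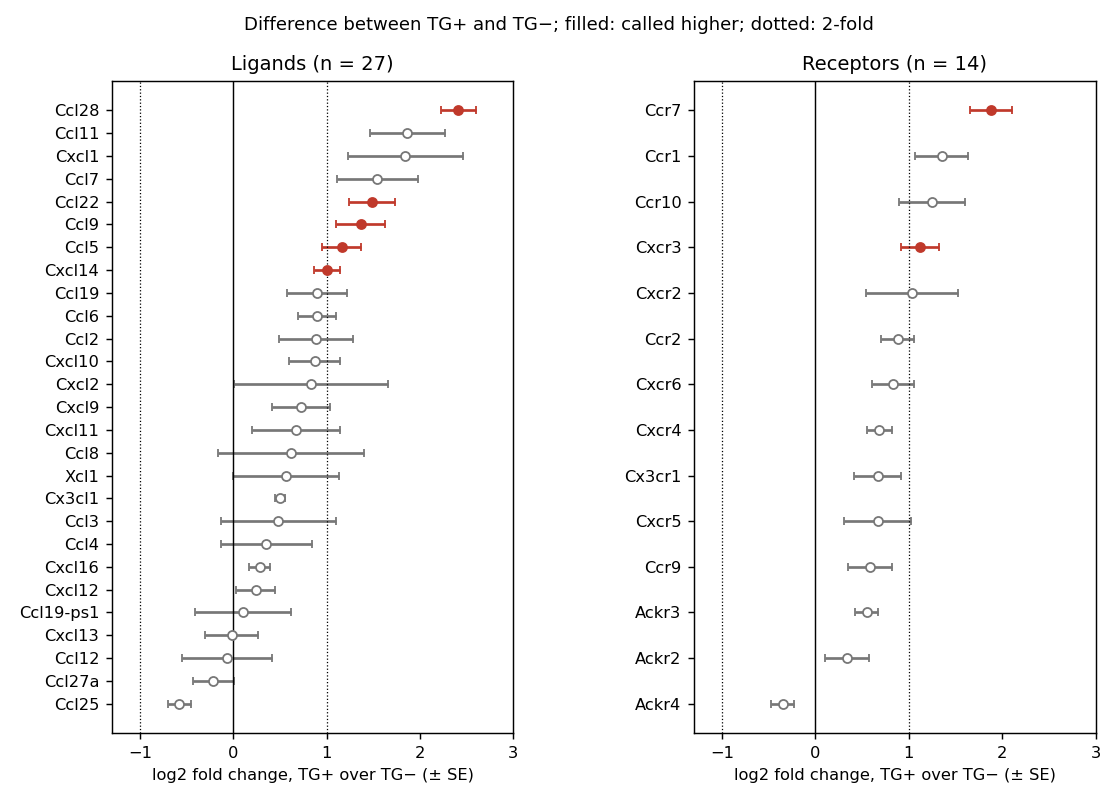
Log2 fold change of TG+ over TG− (x axis, with the standard error) for the 27 tested ligands and 14 of the 15 tested receptors, ordered by value. Filled red points are the 7 genes called higher, from 1.00 for Cxcl14 to 2.41 for Ccl28, and the dotted lines mark a 2-fold difference.

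The number of calls fell when a mouse was left out. With any 1 mouse left out, between 2 and 5 of the chemokine genes were called higher: 3 without 43-29, 5 without 43-49, 3 without 43-75, 5 without 43-26, 2 without 43-50 and 3 without 43-76. Ccl28 and Ccr7 were called in each of these. Cxcr3 and Ccl22 lost the call whichever mouse was left out, Ccl5 in 5 of the 6 cases, and Ccl9 and Cxcl14 in 4. Their log2 fold changes then stayed between 1.31 and 1.63 for Ccl22, 0.92 and 1.19 for Cxcr3, 1.03 and 1.35 for Ccl5, 1.17 and 1.67 for Ccl9, and 0.88 and 1.17 for Cxcl14. Over all genes, the number called higher also fell, from 732 to between 469 and 633.

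The slice held the genes of the cortex. Kap, Slc34a1, Lrp2, Umod, Slc12a3 and Nphs1, which mark proximal tubule, thick limb, distal tubule and podocytes, were present in all 6 mice. Their lowest level was 22.1 CPM (counts scaled to 1e6 of the normalized library), for Nphs1 in mouse 43-76. The transgene has no row of its own, and mouse Hif1a stood at a mean of 95.7 CPM in TG+ and 104 CPM in TG− mice. The total reads per mouse lay between 48052131 and 60506785. At that depth 1 read corresponds to about 0.02 CPM, so the genes near the filter of 0.193 CPM rest on about 10 reads per mouse.

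Levels of different genes can be compared only per length, for which the deposited RPKM (reads scaled by gene length and library size) was averaged over the kidneys of a mouse. In TG− mice the ligand with the highest mean was Cx3cl1, at 19.4 RPKM ± 0.66 (SD, n = 3), followed by Ccl28 at 18.5 ± 4.72, Cxcl16 at 8.42 ± 1.06, Cxcl12 at 6.04 ± 0.361 and Cxcl14 at 5.05 ± 0.958. Cx3cl1 and Ccl28 did not differ beyond their spread. In TG+ mice Ccl28 was first, at 95.4 RPKM ± 12.4, and Cx3cl1 came next, at 26.7 ± 0.644. From Cxcl10 (2.82 RPKM in TG−) downwards the ligands formed a long tail, and 27 of the 36 had a TG− mean under 1 RPKM.

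**Figure D2:**
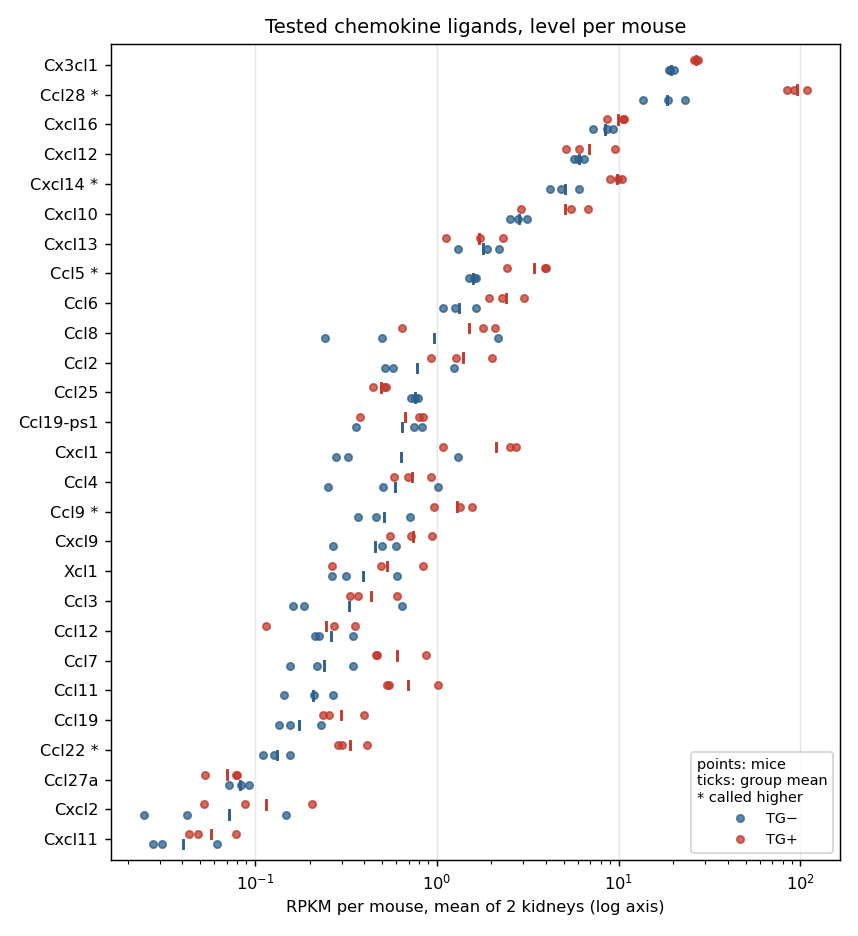
RPKM of each tested ligand in each mouse (points, log axis; ticks are group means), ordered by the TG− mean. Ccl28 stands apart in TG+ mice, at 95.4 RPKM against 18.5 in TG−, and the TG+ points of Cx3cl1 also lie above its TG− points, at 26.7 against 19.4 RPKM.

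Summed over the 36 ligands, the level was 188, 162 and 173 RPKM in TG+ mice 43-29, 43-49 and 43-75, and 82.4, 66.7 and 70.1 RPKM in TG− mice 43-26, 43-50 and 43-76. Ccl28 made up 54.5% ± 2.92 of that sum in TG+ mice and 25.03% ± 3.997 in TG− mice (SD, n = 3). The groups did not overlap in the sum or in the share. Without Ccl28, the ligands summed to between 357 and 391 CPM in TG+ and between 260 and 288 CPM in TG− mice, which still did not overlap.

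**Figure D3:**
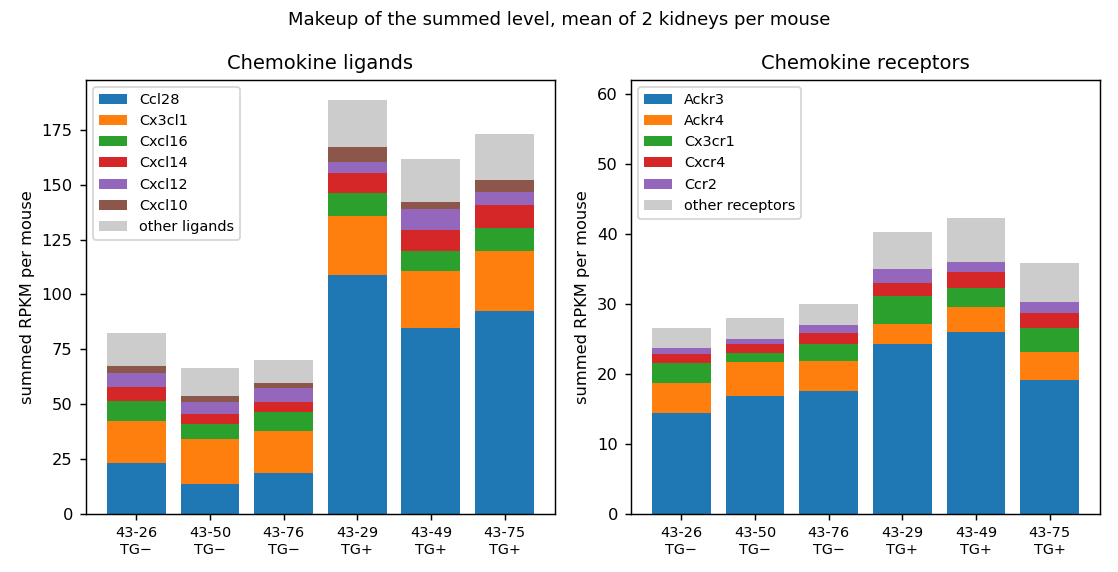
Summed RPKM of the ligands (left) and receptors (right) in each mouse, stacked by gene. Ccl28 makes up 54.5% of the ligand sum in TG+ mice and 25.03% in TG− mice, and Ackr3 makes up most of the receptor sum in both groups.

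Ccl28, the ligand of Ccr10 and Ccr3 that epithelia of mucosal tissues secrete, showed the largest difference among the chemokine genes tested with all mice and both kidneys. It was at 416, 322 and 348 CPM in TG+ mice 43-29, 43-49 and 43-75, and at 85.1, 50.5 and 68.7 CPM in TG− mice 43-26, 43-50 and 43-76. Every TG+ mouse lay far above every TG− mouse. The log2 fold change was 2.41 ± 0.19 (SE), or 5.32-fold, with an adjusted p of 1.5e-04 in edgeR's quasi-likelihood test. The kidneys of a mouse lay close together, with a largest ratio between them of 1.17. Ccl28 was called under every alternative tried, with log2 fold changes from 2.23 to 2.60.

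Ccl28 lies on chromosome 13 from 119623819 to 119654359 on the plus strand (GRCm38) and overlaps no other gene of the table. Its upstream sequence is shown because Ccl28 had the largest fitted difference of the chemokine genes in the main test. Higher values in single alternatives were those of Ccl11 (3.41 in kidney 2 alone) and Cxcl1 (3.01 without mouse 43-26). The 250 bases before its start, from RefSeq on GRCm38.p6, hold none of the 3 motifs searched below.
Ccl28, chr13:119623569-119623818, plus strand: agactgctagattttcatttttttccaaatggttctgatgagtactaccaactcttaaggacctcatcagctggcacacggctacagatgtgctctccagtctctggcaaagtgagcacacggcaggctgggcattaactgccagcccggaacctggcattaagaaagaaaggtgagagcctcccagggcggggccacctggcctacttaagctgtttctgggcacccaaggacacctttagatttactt

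Of the receptors of Ccl28, Ccr10 was at 0.788, 1.55 and 1.49 CPM in TG+ mice 43-29, 43-49 and 43-75, and at 0.409, 0.420 and 0.798 CPM in TG− mice 43-26, 43-50 and 43-76. The groups overlapped, since TG− mouse 43-76 stood slightly above TG+ mouse 43-29, and the log2 fold change of 1.25 ± 0.35 had an adjusted p of 0.035. Ccr10 shares its place on chromosome 11 with Cntnap1, so its reads are uncertain. Ccr3 had 22 reads in all and was not tested.

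Promoters were searched for 3 motifs on both strands, from 250 bases before to 50 after the RefSeq start: the NF-kB site, the core of the hypoxia response element bound by HIF (ACGTG or GCGTG) and the interferon-stimulated response element (GAAANNGAAA). Of the chemokine genes, 41 had a promoter in the table, 24 ligands and 17 receptors. Called genes without an entry were Ccl5 and Ccr7. A match to the NF-kB site was present in 8 ligands (33.3%) and 4 receptors (23.5%), against 9.55% of all promoters and 12.2% of those of genes tested. The HIF core was present in 13 ligands (54.2%) and 8 receptors (47.1%), against 46.7% of all promoters and 63.6% of those of genes tested. The interferon element was present in Ccl19, Cxcl10 and Cxcl14, 12.5% of the ligands, in 0 receptors and in 3.99% of all promoters. A promoter with several matches, overlapping or not, was counted once in these shares. These are matches of letters, and binding was not measured.

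Cx3cl1, a membrane-tethered ligand that is shed by Adam10 and Adam17, was at 141, 137 and 143 CPM in TG+ mice and at 97.996, 103 and 97.1 CPM in TG− mice. The groups were tight and did not overlap. Its log2 fold change of 0.50 ± 0.05, or 1.41-fold, had an adjusted p of 5.3e-04 but did not reach the 2-fold limit. Its receptor Cx3cr1, found on monocytes and macrophages, was at 15.2, 10.5 and 12.6 CPM in TG+ mice and at 10.5, 5.01 and 8.62 CPM in TG− mice, with groups that overlapped narrowly and an adjusted p of 0.091. The annotated span of Cx3cr1 covers 5 other genes of the table, so its reads are uncertain.

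Cxcl16, the other tethered ligand, was at 61.3, 49.5 and 59.7 CPM in TG+ mice and at 51.9, 40.2 and 48.2 CPM in TG− mice, and the groups overlapped (adjusted p = 0.10). It overlaps Zmynd15. Its receptor Cxcr6, carried by T and NK cells, was at 2.65, 2.91 and 2.25 CPM in TG+ mice and at 1.95, 1.38 and 1.06 CPM in TG− mice. These groups did not overlap, with a log2 fold change of 0.83 ± 0.23 and an adjusted p of 0.032. Cxcr6 overlaps Fyco1, which has many more reads.

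Cxcl12, the stromal ligand of Cxcr4 and Ackr3, was at 71.0, 132 and 82.4 CPM in TG+ mice and at 86.2, 75.8 and 79.9 CPM in TG− mice. Only mouse 43-49 lay above the TG− mice, and the log2 fold change of 0.24 turned to -0.08 without it. Cxcr4 was at 5.09, 6.06 and 5.89 CPM in TG+ and at 3.24, 3.26 and 4.13 CPM in TG− mice, with groups that did not overlap. Its log2 fold change of 0.68 ± 0.14 had an adjusted p of 0.0090, below the 2-fold limit.

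Cxcl14, a ligand made constitutively by epithelia, was at 30.1, 33.3 and 34.8 CPM in TG+ mice and at 19.9, 13.5 and 15.6 CPM in TG− mice. All TG+ mice were higher, and the log2 fold change was 1.00 ± 0.14, just at the 2-fold limit, with an adjusted p of 0.0018. The call was lost with DESeq2, with upper-quartile factors, with no filter on low counts and in kidney 1 alone. The gene lies on chromosome 13 from 56288643 to 56296551 on the minus strand (GRCm38). Its upstream sequence is shown because it was the called ligand with both a HIF core and an interferon element, here in capitals.
Cxcl14 HIF core, chr13:56296552-56296606, minus strand: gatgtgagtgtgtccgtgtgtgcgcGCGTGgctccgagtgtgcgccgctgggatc
Cxcl14 HIF core, chr13:56296603-56296657, minus strand: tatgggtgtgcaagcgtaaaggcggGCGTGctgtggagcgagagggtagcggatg
Cxcl14 interferon element, chr13:56296689-56296748, minus strand: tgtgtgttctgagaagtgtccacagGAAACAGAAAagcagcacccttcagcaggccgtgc

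Ccl5, a ligand of Ccr1 made by T cells, was at 4.75, 4.83 and 2.91 CPM in TG+ mice and at 1.75, 1.93 and 1.90 CPM in TG− mice. The TG− mice were nearly equal, and the lowest TG+ mouse, 43-75, still lay above them. The log2 fold change was 1.16 ± 0.21, with an adjusted p of 0.0060.

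Ccl9, a ligand of Ccr1 in mouse, was at 5.48, 3.44 and 4.70 CPM in TG+ mice and at 2.44, 1.59 and 1.25 CPM in TG− mice. The groups did not overlap, and the log2 fold change was 1.36 ± 0.27 with an adjusted p of 0.0088. Ccl9 lies on chromosome 11 from 83572919 to 83578636 on the minus strand (GRCm38), among 12 ligand genes on that chromosome. Of the 5 called genes with a promoter in the table, it was the one with an NF-kB match, in capitals below.
Ccl9 NF-kB, chr11:83578637-83578696, minus strand: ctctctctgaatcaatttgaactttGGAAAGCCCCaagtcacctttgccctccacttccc

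Its neighbour Ccl6, another Ccr1 ligand, was at 6.21, 5.18 and 8.01 CPM in TG+ mice and at 4.33, 2.84 and 3.27 CPM in TG− mice. The groups did not overlap, but the adjusted p was 0.016, and its annotated span overlaps E230016K23Rik. Ccl3 and Ccl4 had 79 and 123 reads in all, and their TG+ and TG− mice overlapped, with adjusted p values of 0.61 and 0.64.

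The receptor Ccr1, on monocytes and neutrophils, was at 1.496, 1.00 and 1.79 CPM in TG+ mice and at 0.487, 0.455 and 0.737 CPM in TG− mice. The groups did not overlap and the log2 fold change was 1.35 ± 0.28, with an adjusted p of 0.012 that missed the threshold.

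Ccl22, which dendritic cells and macrophages secrete to attract cells with Ccr4, was at 1.03, 0.776 and 0.717 CPM in TG+ mice and at 0.292, 0.350 and 0.246 CPM in TG− mice. All TG+ mice lay more than 2-fold above the highest TG− mouse. The log2 fold change was 1.49 ± 0.25 (adjusted p = 0.0044), on 178 reads in all. Ccl17, the other Ccr4 ligand, had 37 reads and Ccr4 had 21, and neither was tested.

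The monocyte receptor Ccr2 was at 27.9, 21.1 and 23.1 CPM in TG+ mice and at 12.6, 10.2 and 16.4 CPM in TG− mice, without overlap. Its log2 fold change of 0.88 ± 0.17 had an adjusted p of 0.0093, and its 1.84-fold difference was under the limit. Of its ligands, Ccl2, Ccl7, Ccl8 and Ccl12, none passed the test. Their log2 fold changes were 0.89, 1.54, 0.62 and -0.07, and the groups overlapped except for Ccl7 (adjusted p = 0.034). With 1 mouse left out, the value for Ccl2 ranged from 0.52 without 43-29 to 1.40 without 43-26, and that for Ccl8 from 0.14 to 2.32, the latter without 43-50. The eosinophil ligand Ccl11 was at a mean of 0.723 CPM in TG+ and 0.194 CPM in TG− mice, with no overlap and an adjusted p of 0.013. Both Ccl7 and Ccl11 reached the filter of 0.193 CPM in all 3 TG+ mice and 1 TG− mouse, so they were tested through the group where they are high. Their separation enters the shares of genes given above and is read no further.

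Cxcr3, a receptor of activated T cells, was at 1.78, 2.52 and 1.77 CPM in TG+ mice and at 0.799, 0.981 and 1.02 CPM in TG− mice. Every TG+ mouse was higher, mouse 43-49 most. The log2 fold change was 1.12 ± 0.20 (adjusted p = 0.0065). Cxcr3 lies on chromosome X from 101731535 to 101734269 on the minus strand (GRCm38). It was the called receptor with a promoter in the table, which holds a HIF core, shown in capitals.
Cxcr3 HIF core, chrX:101734221-101734275, minus strand: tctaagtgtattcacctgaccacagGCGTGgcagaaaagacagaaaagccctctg

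The ligands of Cxcr3, which interferons induce, did not pass the test. Cxcl10 was at 14.5, 6.29 and 11.7 CPM in TG+ mice and at 6.53, 5.95 and 5.24 CPM in TG− mice. Mouse 43-49 fell inside the TG− range, and the adjusted p was 0.049. Cxcl9 was at 5.24, 4.06 and 3.05 CPM in TG+ mice and at 1.42, 3.31 and 2.70 CPM in TG− mice, with an overlap and an adjusted p of 0.13. Cxcl11, which the annotation calls a polymorphic pseudogene, was at 0.404, 0.229 and 0.199 CPM in TG+ mice and at 0.292, 0.105 and 0.123 CPM in TG− mice (adjusted p = 0.34). Both Cxcl10 and Cxcl11 overlap Art3.

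Ccr7, the receptor that brings dendritic cells and naive T cells to lymphatic vessels and lymph nodes, differed most among the receptors. It was at 1.48, 1.48 and 1.06 CPM in TG+ mice and at 0.292, 0.403 and 0.389 CPM in TG− mice. The lowest TG+ mouse was more than 2-fold above the highest TG− mouse. The log2 fold change was 1.88 ± 0.23, or 3.68-fold, with an adjusted p of 0.0012. Ccr7 kept its call in every alternative fit that tested it, lost it at a 4-fold limit, and was removed by a filter at a mean of 1 CPM.

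Its ligand Ccl19 was at 0.526, 0.846 and 0.478 CPM in TG+ mice and at 0.253, 0.298 and 0.450 CPM in TG− mice. The groups just failed to overlap, and the log2 fold change of 0.90 ± 0.32 had an adjusted p of 0.078. The pseudogene Ccl19-ps1, a close copy, had 56 reads, so reads may be split between the 2 rows. Of the other lymphoid genes, the B cell ligand Cxcl13 had a log2 fold change of -0.02 and its receptor Cxcr5 of 0.66, with groups that overlapped.

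Ccl25, a ligand of thymus and gut that acts on Ccr9, was the ligand with all TG+ mice below all TG− mice. It was at 3.03, 3.03 and 2.53 CPM in TG+ mice and at 4.44, 4.32 and 4.05 CPM in TG− mice. Its log2 fold change of -0.58 ± 0.12 had an adjusted p of 0.012, which missed the threshold, and the gene overlaps Elavl1. Ccr9 was at 0.890, 0.652 and 0.817 CPM in TG+ and at 0.409, 0.525 and 0.634 CPM in TG− mice (adjusted p = 0.10). Its annotated span covers 6 other genes of the table.

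Summed over the 21 receptors, the level was 40.3, 42.3 and 35.9 RPKM in TG+ mice and 26.6, 28.0 and 30.0 RPKM in TG− mice, without overlap. Atypical receptors led this sum. Ackr3, which scavenges Cxcl12, made up 58.4% ± 4.34 of it in TG+ and 57.5% ± 2.94 in TG− mice (SD, n = 3).

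Ackr3 was at 85.5, 91.5 and 67.1 CPM in TG+ mice and at 49.4, 57.7 and 59.8 CPM in TG− mice. The groups did not overlap, and the 1.46-fold difference had an adjusted p of 0.015. Ackr4, the scavenger of Ccl19, Ccl21 and Ccl25, ran the other way, at 6.00, 7.51 and 8.38 CPM in TG+ mice and 8.85, 10.03 and 9.09 CPM in TG− mice. Its log2 fold change was -0.35 ± 0.13 (adjusted p = 0.079), and it lies within Acad11, which has many more reads. Ackr2, the scavenger of inflammatory CC ligands, overlapped between the groups (adjusted p = 0.33).

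**Figure D4:**
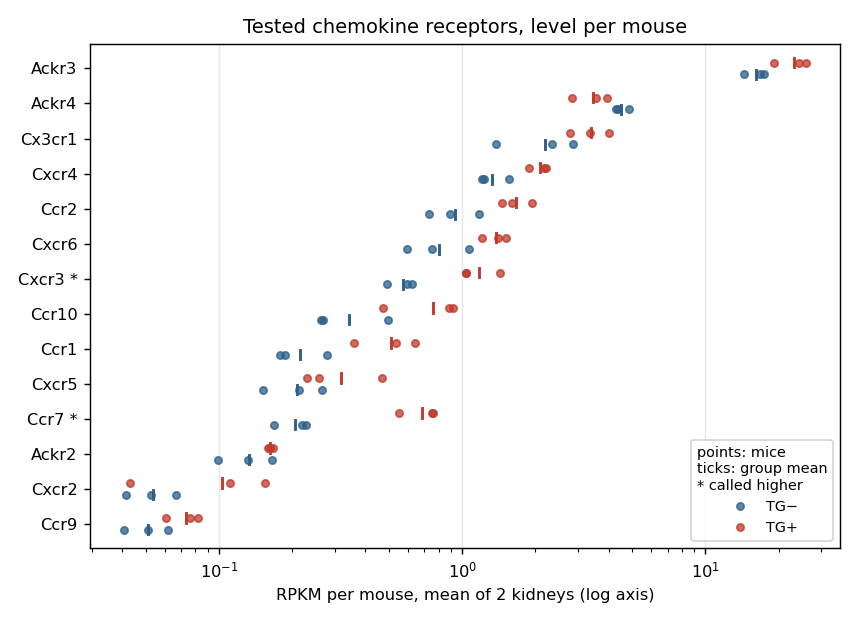
RPKM of 14 of the 15 tested receptors in each mouse (points, log axis; ticks are group means), ordered by the TG− mean. Ackr3 leads in both groups, and Ackr4 is the receptor whose TG+ mice all lie below the TG− mice.

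The neutrophil-attracting ligands of Cxcr2 varied among mice of the same group. This set was singled out after its values were seen. Cxcl1 was at 2.63, 1.00 and 2.41 CPM in TG+ mice and at 1.19, 0.228 and 0.266 CPM in TG− mice. TG− mouse 43-26 stood slightly above TG+ mouse 43-49, and the log2 fold change of 1.84 ± 0.62 had an adjusted p of 0.062. With 1 mouse left out, the log2 fold change of Cxcl1 ranged from 1.45 to 3.01, the latter without 43-26. The adjusted p then ranged from 0.0078 without 43-26 to 0.17 without 43-76. Cxcl2 had a log2 fold change of 0.83 (adjusted p = 0.50), which ranged from 0.014 to 2.34 with 1 mouse left out. It was highest in mouse 43-29 (0.566 CPM) and, among TG− mice, in 43-26 (0.390 CPM against 0.0350 and 0.0819). Both kidneys of 43-26 showed it, with 1.18 and 1.20 CPM of Cxcl1 and 0.38 and 0.40 CPM of Cxcl2. Cxcr2 had 115 reads in all (adjusted p = 0.16), and Cxcr1 had 0.

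More generally, 43-29 was the highest TG+ mouse and 43-26 the highest TG− mouse for 11 of the 27 tested ligands, 40.7%, against 13.3% of all genes tested and 1 of the 15 tested receptors. A gene was counted where the highest mouse of each group exceeded the next by more than 1%, which leaves out Ccl25, level in 43-29 and 43-49. The name of the deposited table lists 43-29 and 43-26 as a pair, and the order was noticed after the values were seen. The 11 were Ccl2, Ccl3, Ccl4, Ccl9, Ccl12, Ccl28, Cxcl1, Cxcl2, Cxcl10, Cxcl11 and Cxcl16. Few reads in all lay behind Ccl12 (68), Cxcl11 (70), Cxcl2 (72), Ccl3 (79) and Ccl4 (123), so their highest mice are uncertain. Each of these reached 0.193 CPM in fewer than 3 TG− mice. Of the 8 genes of injured tubule, 6 had the same highest mice (Cd44, Havcr1, Krt18, Krt19, Lcn2 and Vcam1), and Sox9 and Vim did not. Havcr1 (Kim-1) was at 26.0, 12.5 and 22.5 CPM in TG+ and 5.07, 2.96 and 0.798 CPM in TG− mice. The part of tubule injury in the order of the mice was not tested. Of the 11, 7 had a promoter in the table, and 4 of these (Ccl9, Cxcl1, Cxcl2 and Cxcl10) held an NF-kB match. So did 1 of 12 among the other tested ligands and 12.2% of genes tested. The 11 were picked by these same values, and a part of NF-kB in the order of the mice was not tested. For Cxcl1, Cxcl2 and Cxcl10, known targets of that factor, 1 match each is shown in capitals. Cxcl10 holds another match 149 bases before its start.
Cxcl1 NF-kB, chr5:90891149-90891208, plus strand: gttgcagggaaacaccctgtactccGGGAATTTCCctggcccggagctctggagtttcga
Cxcl2 NF-kB, chr5:90903777-90903836, plus strand: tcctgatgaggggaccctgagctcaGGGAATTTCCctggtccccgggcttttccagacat
Cxcl10 NF-kB, chr5:92348958-92349017, minus strand: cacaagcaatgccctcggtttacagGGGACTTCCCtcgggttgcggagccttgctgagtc

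**Figure D5:**
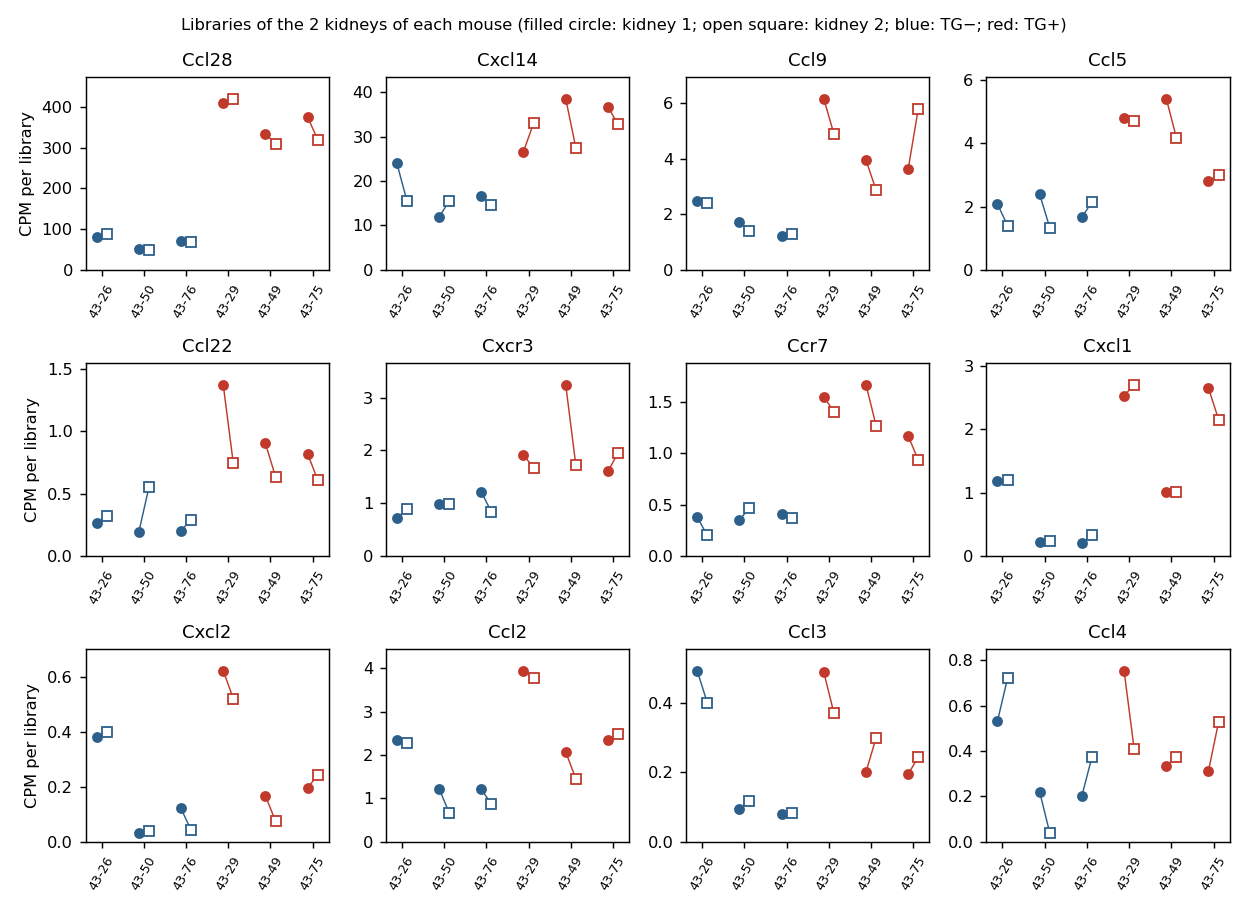
CPM in each library for the 7 called genes and for Cxcl1, Cxcl2, Ccl2, Ccl3 and Ccl4, with the 2 kidneys of a mouse joined by a line (circle, kidney 1; square, kidney 2). The kidneys of mouse 43-26 both sit above those of the other TG− mice for these 5 ligands.

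The kidneys of a mouse were not equally close for every gene. Among members with at least 500 reads, the largest ratio between the kidneys of any mouse was 1.84 for Ccl2, 1.83 for Ccl6, 1.79 for Ccl5 and 1.78 for Ccl25, and 1.03 for Ackr3. For 3 of these 20 genes (Ccl25, Cxcl13 and Cxcl12) that ratio was larger than the difference between the groups in either direction, and for Ccl6, Ccl2 and Cxcl9 it was slightly smaller.

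The genes under 20 reads in all libraries together were 6 ligands and 3 receptors. The ligands were Cxcl17 with 13 reads, Ccl20 with 11, Cxcl3 with 7, Ccl1 with 2, and Ccl26 and Cxcl15 with 1 each. The receptors were Ackr1 with 11 reads, Ccr8 with 7 and Cxcr1 with 0. At this depth these genes could not be compared. Another 6 had 20 reads or more but did not pass the filter, Ccl17 (37), Cxcl5 (31), Ccl24 (27), Ccr6 (56), Ccr3 (22) and Ccr4 (21). Cxcl5 had 16 of its 31 reads in TG− mouse 43-26. The 42 tested genes are therefore those with reads, and 11 of them reached 0.193 CPM in fewer than 3 TG− mice, 7 of these in all 3 TG+ mice (Ccl3, Ccl4, Ccl7, Ccl8, Ccl11, Cxcl11 and Cxcr2).

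The 5 related genes outside the names gave 1 call, beside the 3.77% of all genes tested that were called higher. Xcr1, the receptor of cross-presenting dendritic cells, was at 1.66, 1.89 and 1.67 CPM in TG+ mice and 0.819, 0.543 and 0.942 CPM in TG− mice, with a log2 fold change of 1.19 ± 0.22 (adjusted p = 0.0067). Its ligand Xcl1 had 65 reads and an adjusted p of 0.51. Ccrl2, Pf4, Ppbp and Cklf did not pass the test.

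Of 31 genes of signalling below chemokine receptors, 4 rose and none fell, with a median log2 fold change of 0.33. For this list and those that follow, the shares over all genes tested are the 3.77% higher and 0.211% lower given above. The 4 were Rac2 (1.15), Dock2 (1.11), Pik3cg (1.10) and Pik3r5 (1.06), which are known from leukocytes. The broadly expressed Gi subunits were nearer to equal, with log2 fold changes of 0.28 for Gnai1, 0.24 for Gnai2 and 0.11 for Gnai3.

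Of 16 tested cytokines and factors that induce chemokines, 2 rose. Lta was at 1.62, 1.29 and 0.737 CPM in TG+ mice and 0.0975, 0.175 and 0.205 CPM in TG− mice (log2 fold change 2.91 ± 0.39, adjusted p = 0.0018). It reached 0.193 CPM in 1 TG− mouse, so it passed the filter only through its TG+ mice. Ltb had a log2 fold change of 1.37 ± 0.22 (adjusted p = 0.0036). These encode the lymphotoxin chains. Tnf and Il1b had log2 fold changes of 0.95 and 0.88 and did not pass, and Il6, Ifng, Il13 and Il17a had too few reads to test. Of 9 genes that cleave or bind chemokines, Mmp9 alone rose (1.503 ± 0.25, adjusted p = 0.0048). Adam10 and Adam17, the sheddases of Cx3cl1 and Cxcl16, had log2 fold changes of 0.12 and -0.06.

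Genes that mark leukocytes were counted beside the chemokine genes. Of B and plasma cell genes, 4 of 8 tested rose (Jchain, Cd79a, Mzb1 and Cd79b), with a median log2 fold change of 1.59 and a summed level of 311 to 555 CPM in TG+ mice against 72.7 to 104 CPM in TG− mice. Jchain made up most of that sum, and without it the genes summed to 12.3 to 21.4 CPM against 6.30 to 6.64 CPM. Of T and NK cell genes, 2 of 11 rose (Cd4 and Cd3e), with sums of 12.9 to 16.4 CPM against 7.94 to 9.38 CPM. Of dendritic cell genes, 2 of 5 rose (Cd209a and Itgax), with sums of 25.03 to 30.2 CPM against 14.02 to 17.4 CPM. Of macrophage and monocyte genes, 1 of 9 rose, Ly6c2, whose TG− mice all lay under 0.193 CPM so that it was tested through its TG+ mice alone, with sums of 166 to 194 CPM against 99.995 to 130 CPM. In bulk tissue, more cells of a type and more RNA per cell cannot be told apart, and the part of these cells in the chemokine values was not tested.

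Defining neutrophil genes had few reads. Ly6g had 0 reads, Mpo and Elane 2 each and Camp 4, and of the 3 tested (Csf3r, S100a8 and S100a9) none passed. The neutrophil genes summed to 2.27 to 6.47 CPM in TG+ and 1.75 to 4.09 CPM in TG− mice. Venule and lymphoid stroma genes gave 0 calls of 3 tested, with Glycam1 at 3 reads and Madcam1 at 22. Lymphatic endothelium gave 0 of 4 and blood endothelium 0 of 6, although all 6 of the latter had every TG+ mouse above every TG− mouse, as 23.4% of all genes tested did, with sums of 499 to 537 CPM against 293 to 386 CPM.

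Tubule genes were counted in the same way. Of 9 proximal tubule genes, none rose and 2 fell (Slc22a6 and Cyp4b1), with a median log2 fold change of -0.75 and sums of 26344 to 29615 CPM in TG+ against 36739 to 39026 CPM in TG− mice. Of 8 genes of injured tubule, 3 rose (Havcr1, Krt19 and Cd44), with sums of 111 to 148 CPM against 48.1 to 82.8 CPM. Their part in the chemokine values was not tested.

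Ccl28 and Jchain, the joining chain of secreted IgA, were both called higher in TG+ mice, but their values did not order these mice alike. Jchain was at 298, 512 and 537 CPM in mice 43-29, 43-49 and 43-75, where Ccl28 was at 416, 322 and 348 CPM. The TG− mice had 66.4, 68.0 and 97.8 CPM of Jchain. With 3 mice in each group no correlation was computed, and a link between Ccl28 and Jchain was not tested.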

How the data were processed

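Per the submitters' processing notes the build was mm9, and by the methods 51-bp single-end reads were analysed mainly with the Tuxedo tools. The counter, the annotation release and the handling of strand are not given in the sources used here. The deposited count table holds unnormalized reads for 37681 Ensembl genes in each of 12 libraries. Beside each count the authors gave an RPKM value, which has 1 added to the count and a scaling that the header names BUQ. These RPKM values served only to compare levels between genes. The authors' own fold changes, p-values and q-values, and their log2 RPKM, were not used.

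Symbols were matched by identifier to the GENCODE annotation on GRCm38, which named 32642 genes, and gene positions and overlaps come from there. No coordinates were converted between builds. Promoter sequences come from RefSeq (GRCm38.p6).

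The counts of the 2 kidneys of a mouse were summed. Genes were filtered with edgeR's filterByExpr function (0.193 CPM, 10 reads at the median depth), normalized by TMM and tested by quasi-likelihood in edgeR 4.0.16 under R 4.3.3. The p-values were adjusted by Benjamini-Hochberg over 19399 genes. The threshold was that of the study, an adjusted p below 0.01 and a fold change above 2 or below 0.5. CPM values use the TMM-normalized library sizes. DESeq2 1.42.0 was an alternative. Totals were between 21888584 and 33704850 reads per library. The mice are separate littermates, 3 in each group. The p-values set the difference between groups against a variation between mice that is estimated partly across all genes.

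The chemokine genes, the other gene lists and the tests were chosen with earlier results of these data known. Values per mouse are given for members that passed the threshold, for members with mean of at least 1 CPM whose groups do not overlap, for the 3 ligands and 3 receptors with the highest RPKM in TG− mice, and for known partners of called genes. Other members named were chosen after their values were seen. Of the other lists, called genes are named. No gene set was tested. Values of 1 tested receptor and of 1 cortex marker are not reported here, though both are in the counts.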

Additional observations from a re-analysis of the deposited data

How the results depend on the processing

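The number of chemokine genes called higher was 7, and the number called lower was 0 under every alternative run. With DESeq2 it was 9, with upper-quartile factors 6, with no filter on low counts 8, with a filter at a mean of 1 CPM 5 and with each kidney as its own library 10. The last of these runs counts the 2 kidneys of a mouse as separate replicates, which they are not. The number was 11 with library size alone, 4 in kidney 1 alone and 6 in kidney 2 alone. It was 11 at an adjusted p below 0.05, 11 with no fold limit and 1 (Ccl28) at 4-fold. The share of all genes called higher, 3.77%, lay between 2.38% and 4.87% over the alternative fits, and was 5.24% at an adjusted p below 0.05, 7.91% with no fold limit and 1.67% at 4-fold. Library size alone moved the median log2 fold change of all genes from 0.01 to 0.13, and that of the receptors to 0.95. Leaving out 1 mouse gave 2 to 5 genes called higher, a ligand median of 0.52 to 1.08 and a receptor median of 0.78 to 0.91. The cause of these shifts was not tested.

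With the littermate pair as a replicate block, 8 genes were called higher, the same 7 and Ccr1, and it lost no call. The pairs come only from the name of the deposited table, and the deviations of pair members correlated over genes at 0.39 (43-29 and 43-26), 0.33 (43-49 and 43-50) and -0.02 (43-75 and 43-76). The main test had no block.

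Of 583 values of single genes under the alternatives, 511 kept direction and side of the threshold, 35 lost the call, 20 gained it and 17 changed sign, none of a called gene. Cxcl13 (-0.02) became 0.11 with library size alone, 1.91e-04 with the 1 CPM filter and 0.0031 in kidney 1, and Ccl12 (-0.07) became 0.050 with library size alone. Ackr2 became -0.095 in kidney 1 and Ccl27a 0.021 in kidney 2. Leaving out 1 mouse gave -0.30 to 0.20 for Cxcl13, -0.48 to 0.33 for Ccl12 and -0.23 to 0.43 for Ccl19-ps1. It gave -0.046 to 1.07 for Ccl4, -0.076 to 0.40 for Cxcl12 and -0.050 to 1.10 for Xcl1. The depth of 48052131 to 60506785 reads per mouse did not allow a test of 15 of the 57 genes.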
